A study of Oryza sativa with 23 samples.

Results

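Nitrate uptake and reduction in rice roots was followed through 8 loci, chosen by their locus identifiers from the 52901 loci of the array. These were OsNRT2.1 (LOC_Os02g02170), NRT2.2 (LOC_Os02g02190), NRT2.3 (LOC_Os01g50820), NAR2.1 (LOC_Os02g38230), NRT1.1B (LOC_Os10g40600), a pair of nitrate reductase loci (LOC_Os08g36480 and LOC_Os08g36500) and nitrite reductase (LOC_Os01g25484). Of these, 7 had a probe, 1 probe each, and no probe carried the NRT2.2 locus name. OsNRT2.1 and NRT2.2 lie next to each other on chromosome 2 with 0 genes between them in the RefSeq annotation, and whether the OsNRT2.1 probe also binds NRT2.2 transcripts is not known here.

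Roots take up nitrate through low-affinity carriers of the NRT1 family and high-affinity carriers of the NRT2 family, and several rice NRT2 proteins carry nitrate only together with the small partner protein NAR2.1. In the cytosol nitrate reductase turns nitrate into nitrite, and in plastids nitrite reductase turns nitrite into ammonium, which is then built into amino acids. NRT2 and reductase transcripts are known in plants to respond to the nitrate supply, to the nitrogen status of the plant and to carbohydrate supply.

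Root RNA of 4 rice genotypes was hybridized to 23 arrays, to learn how the drought yield QTL qDTY12.1 and its NAC transcription factor OsNAM12.1 act in roots. IR64 is a drought-susceptible cultivar, and OsNAM Event 2 is a single transformation event of IR64 that overexpresses OsNAM12.1, for which the promoter driving the transgene is not given in the sources used here. Vandana is the recipient of the QTL, and 481-B is its near-isogenic line with the qDTY12.1 allele of Way Rarem. All plants grew in soil cylinders in a screenhouse and were sampled 25 days after sowing. In drought, the soil dried down from 75% of field capacity. The water level kept in control soil differed by background, 1.2 times field capacity in the IR64 background and 1 times field capacity in the Vandana background, so genotype background and watering level cannot be told apart in the well-watered arrays or in the drought responses. Each group had 3 arrays, except well-watered OsNAM Event 2 with 2. Roots of 5 plants per genotype and treatment were collected, and whether an array held a single plant or a pool is not stated. The p-values therefore measure the spread between arrays. Nothing in the sources used here gives the nitrate content of the soil or of the plants.

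The share of spots called well above background, the software's own test against the local background, lay between 39.3% and 61.0% on the 12 drought arrays and between 31.6% and 64.2% on the 11 well-watered arrays. Values are log2 signals after quantile normalization, which sets all arrays to the same distribution, so a difference of 1 is a 2-fold difference between arrays for the same probe. Levels are not compared between probes. The root marker RCc3 was well above background on 23 of 23 arrays, OsLsi1 on 23, OsLsi2 on 22, OsNramp5 on 21 and OsIRT1 on 17. Of these 5, RCc3 was lower under drought (log2 difference -2.18, SE 0.42, adjusted p = 0.000971, limma), and the silicon transporters OsLsi1 (0.75, adjusted p = 0.0448) and OsLsi2 (1.27, adjusted p = 0.0147) were higher. The 6 leaf markers were well above background on 19 to 23 arrays. Their summed level ranged from 7.14 to 15.98 on drought arrays and from 8.30 to 14.20 on well-watered arrays. For drought averaged over cultivars 0 of 6 passed the test (adjusted p between 0.21 and 0.9, limma), where 26.5% of all probes were called. Their differences ran from -0.56 to 1.40 with SEs from 0.78 to 1.29, which leaves room for changes in either direction. OsNAM12.1, the overexpressed gene, ranged from 4.88 to 8.02 over the 23 arrays and was lower under drought on average (-0.82, SE 0.26, adjusted p = 0.0273, limma). It did not pass the test between OsNAM Event 2 and IR64 under drought (0.67, SE 0.51, adjusted p = 1) or when well watered (0.39, SE 0.57, adjusted p = 0.971). Both well-watered OsNAM Event 2 arrays (7.98 and 7.56) lay above the well-watered IR64 arrays (7.35 to 7.45), a pattern that 9.03% of probes shared. The paper reports overexpression in roots of this event by qRT-PCR at the heading stage. It also reports a rise under drought in 481-B and the transgenic plants, and a fall in the parents and wild type. On these arrays, from plants 25 days after sowing, the drought difference was -0.51 in 481-B (SE 0.51) and -0.95 in OsNAM Event 2 (SE 0.57). Neither passed the test. Whether the array probe detects the transgene's transcript is not known here. The array labelled Vandana well-watered replicate 2, hereafter the doubtful Vandana array, went against its label. On a scale set by 200 probes chosen without it, on which Vandana lies at 0 and the IR64 background at 1, it lay at 1, whereas the other Vandana and 481-B arrays lay between -0.12 and -0.03. The members' drought values in Vandana and on average, and the comparisons with Vandana, are given with and without it, and the likeness of further loci to members only with it. In bulk root RNA, fewer cells of a type and less RNA per cell cannot be told apart.

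Whether the 4 genotypes lowered or raised these genes when the soil dried was the first question. Under drought the high-affinity transporters OsNRT2.1 and NRT2.3 fell, and the partner protein NAR2.1, NRT1.1B, the nitrate reductases and nitrite reductase did not pass the test in any genotype or on average. With slide as a block, NRT1.1B and both nitrate reductases were called lower in IR64, and NAR2.1 and NRT1.1B were called lower on average. A probe counts as called at an adjusted p below 0.05 in limma. Averaged over genotypes, 2 of 7 members were called, both lower, and 7 of 7 had a negative difference, with a median of -0.74 against -0.06 over all probes. Of all probes, 26.5% were called in that comparison and 12.3% were called lower, so the share of members called was close to that of all probes called either way. An unadjusted p under 0.05 was found for 6 of 7 members, and for 19531 of all 52900 probes. In OsNAM Event 2, 2 of 7 members were called lower against 2.97% of all probes (8.16% called either way), and the members' median was -0.75 against -0.05. In 481-B and in Vandana 1 member was called lower, NRT2.3 in both, against 0.208% and 0.499% of all probes called lower (0.582% and 1.7% either way). Without the Vandana array that went against its label, 0 of 7 were called lower in Vandana against 0.386% of all probes, and the averaged comparison still called OsNRT2.1 and NRT2.3, against 12.2%. In IR64 0 of 7 members were called by limma, where 4.99% of all probes were called and 1.83% were called lower. An unadjusted p under 0.05 was found there for 4 of 7 members and for 9570 of all 52901 probes. All 7 had a negative difference in IR64, with a median of -1.10 against -0.03. The averaged comparison uses the same arrays as those within genotypes and is not separate support for them.

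Groups without overlap were common on this array and are read against that. In IR64, 3 members (OsNRT2.1, NRT2.3 and nitrite reductase) had all drought arrays below all well-watered arrays, as had 8.45% of all probes. In OsNAM Event 2 with its 2 well-watered arrays this held for 4 members (OsNRT2.1, NRT2.3, NRT1.1B and LOC_Os08g36500) and 26.2% of all probes. In 481-B it held for OsNRT2.1 and NRT2.3 and 8.29% of probes, and in Vandana for NRT2.3 and 9.41% of probes. Without the Vandana array that went against its label it held in Vandana for OsNRT2.1 and NRT2.3 and 15.2% of probes.

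OsNRT2.1, a high-affinity nitrate transporter that works with NAR2.1, was lower under drought in all 4 genotypes on average, and its averaged change passed the test. In IR64, the 3 drought arrays read 5.18, 4.99 and 4.37 and the 3 well-watered arrays read 5.55, 7.17 and 8.20. In OsNAM Event 2, drought arrays read 4.92, 4.84 and 5.35 and the 2 well-watered arrays read 7.33 and 8.98. In these 2 genotypes every drought array lay below every well-watered array, and the well-watered arrays were far more spread than the drought arrays. In 481-B, drought arrays read 5.75, 5.19 and 4.19 and well-watered arrays read 6.97, 6.16 and 8.34. In Vandana, drought arrays read 4.09, 5.98 and 5.56 and well-watered arrays read 7.50, 5.96 and 7.63, of which 5.96 is the array that went against its label. The groups did not overlap in 481-B and overlapped in Vandana by that array alone.

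Over all genotypes, the 12 drought arrays ran from 4.09 through a median of 5.08 to 5.98 and the 11 well-watered arrays from 5.55 through 7.33 to 8.98. The averaged log2 difference of OsNRT2.1 was -2.29 (SE 0.37, n = 12 and 11 arrays, adjusted p = 0.000236, limma with Benjamini-Hochberg adjustment over all probes). Within genotypes the difference was -3.12 in OsNAM Event 2 (SE 0.80, adjusted p = 0.0266), the only genotype in which it passed the threshold of 0.05. It was -2.13 in IR64 (SE 0.72, adjusted p = 0.103), -2.11 in 481-B (SE 0.72, adjusted p = 0.3) and -1.82 in Vandana (SE 0.72, adjusted p = 0.187). Without the Vandana array that went against its label, the Vandana value was -2.36 (adjusted p = 0.135) and the averaged value -2.43 (adjusted p = 0.000183). Under normexp, a background correction that adds an offset to every signal, the averaged difference was -1.38 (adjusted p = 0.000531) and that in OsNAM Event 2 was -2.03 (adjusted p = 0.0273). The call in OsNAM Event 2 was lost when any of its 5 arrays was left out, with the difference between -3.96 and -2.30 and an adjusted p of up to 0.162. The order of the 8 group means split by treatment, with well-watered OsNAM Event 2 highest at 8.16 ± 1.16 (SD, n = 2) and drought IR64 lowest at 4.84 ± 0.42 (SD, n = 3). The gap of 1.76 between the lowest well-watered mean (IR64, 6.98 ± 1.34) and the highest drought mean (Vandana, 5.21 ± 0.99) was the only gap between neighbours that exceeded the SD of both groups.

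NRT2.3, another high-affinity transporter, which in rice has been tied to moving nitrate from root to shoot, was low on these arrays and lower still under drought. Its probe was well above background on 0 of 12 drought arrays and on 5 of 11 well-watered arrays. Drought arrays read 2.27, 2.03 and 1.60 in IR64 and 1.86, 2.23 and 1.74 in OsNAM Event 2. They read 1.34, 1.33 and 2.06 in 481-B and 1.63, 1.76 and 2.49 in Vandana. All 12 drought values lay in a band from 1.33 to 2.49, with no genotype apart from the others. Well-watered arrays read 2.70, 3.11 and 2.60 in IR64 and 4.29 and 4.54 in OsNAM Event 2. They read 2.70, 3.63 and 2.78 in 481-B and 3.21, 3.55 and 3.66 in Vandana. Every drought array lay below every well-watered array of any genotype, a pattern shared by 0.592% of the 52842 probes with a value on all arrays.

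Because the drought values were not well above background, the change of NRT2.3 is given as a lower bound, the well-watered mean against the higher of each drought array's own value and its lowest signal well above background. The well-watered means include arrays on which the probe was itself not well above background, so these bounds rest in part on dim values. Well above background were 1 of 3 well-watered arrays in IR64, 1 of 2 in OsNAM Event 2, 2 of 3 in 481-B and 1 of 3 in Vandana. Drought values were lower by at least 4.29-fold in OsNAM Event 2 (adjusted p = 0.000365), at least 2.44-fold in Vandana (adjusted p = 0.0172) and at least 1.73-fold in 481-B (adjusted p = 0.035). In IR64 the bound was 1.2-fold and the test was not passed (adjusted p = 0.135). The adjusted p-values printed beside these bounds belong to the fitted differences in limma and do not test the bounds. Averaged over genotypes, NRT2.3 was at least 2.16-fold lower (fitted log2 difference -1.57, SE 0.16, adjusted p = 2.05e-06). Under normexp the averaged difference was -0.21 (adjusted p = 3.6e-05) and the 481-B call was lost (-0.16, adjusted p = 0.272). With a shift to the 75th percentile the calls in 481-B (-1.74, adjusted p = 0.314) and Vandana (-1.97, adjusted p = 0.12) were lost. The lowest signal well above background ranged from 1.51 to 3.83 between arrays. The 481-B call was lost when any of 5 of its 6 arrays was left out (log2 difference between -1.61 and -1.15) and the Vandana call when any of 4 of its 6 arrays was left out. Without the Vandana array that went against its label, the difference in Vandana was -1.47 (adjusted p = 0.0521) with a bound of 2.37-fold, and the averaged difference was -1.56 (adjusted p = 7.12e-06) with a bound of 2.14-fold.

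**Figure D1:**
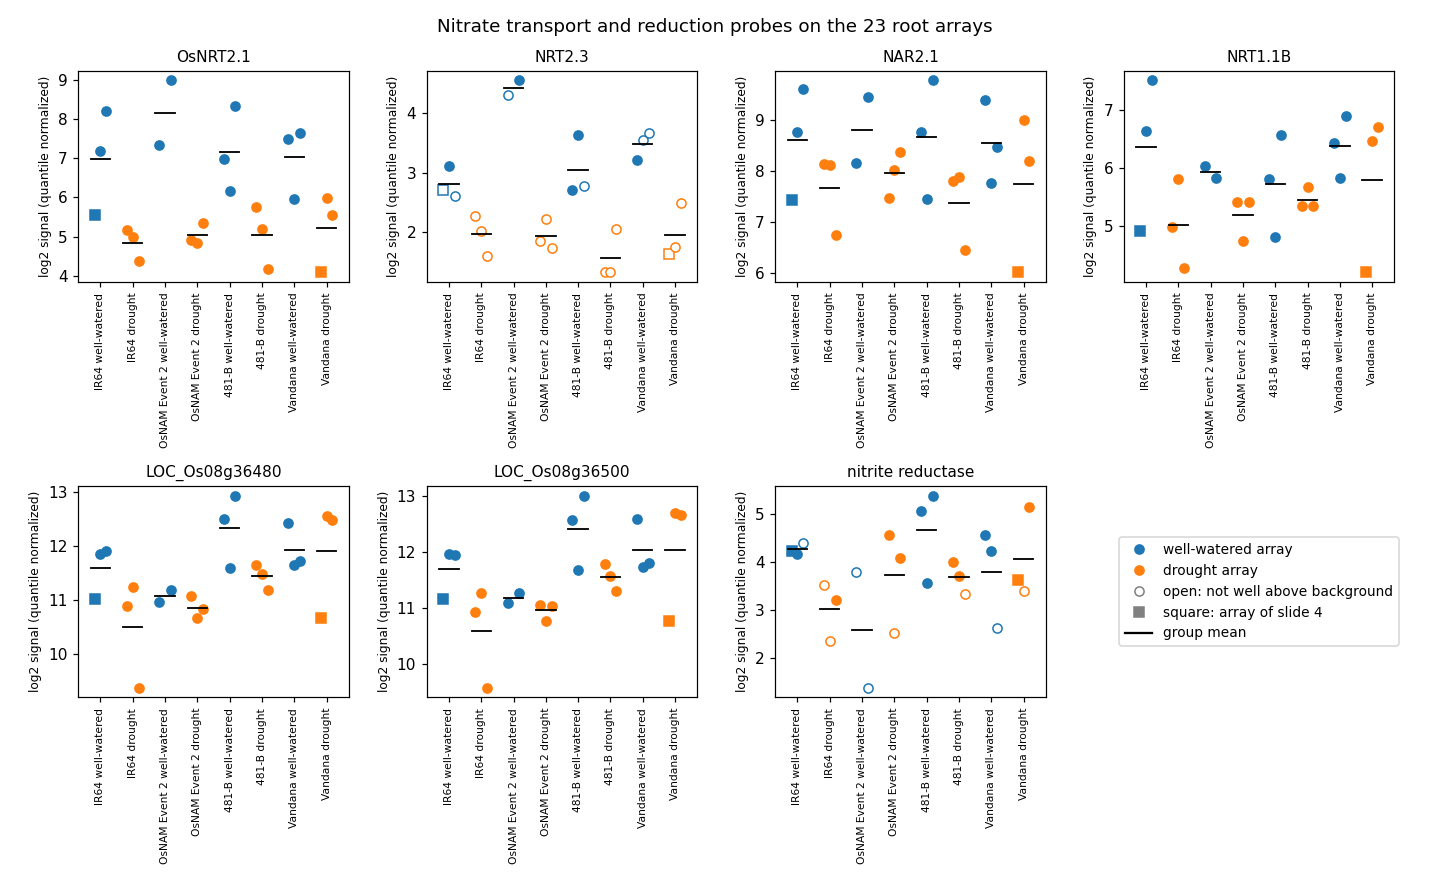
Log2 quantile-normalized signal (vertical axis) of the 7 probes on each of the 23 arrays, by genotype and treatment, with blue points for well-watered and orange for drought arrays, horizontal lines for group means, open symbols for arrays on which the probe was not well above background and squares for the 2 arrays of slide 4. OsNRT2.1 and NRT2.3 sit lower on drought arrays in each genotype, whereas the nitrate reductase probes overlap between treatments in most genotypes.

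NAR2.1, the partner protein that several rice NRT2 carriers need, lay lower on average under drought but did not pass the test. Drought arrays read 8.14, 8.12 and 6.76 in IR64, against 7.44, 8.76 and 9.61 when well watered. They read 7.48, 8.03 and 8.38 in OsNAM Event 2, against 8.16 and 9.45. The 481-B values were 7.81, 7.89 and 6.45 under drought and 8.76, 7.46 and 9.78 when well watered. The Vandana values were 6.02, 9.01 and 8.21 under drought and 9.39, 7.78 and 8.48 when well watered. The groups overlapped in every genotype. The SD was smaller on drought than on well-watered arrays in IR64 (0.79 and 1.09), OsNAM Event 2 (0.46 and 0.91) and 481-B (0.81 and 1.16) and larger in Vandana (1.55 and 0.81). The averaged difference was -0.96 (SE 0.40, 95% interval -1.80 to -0.12, adjusted p = 0.0856), and within genotypes it ran from -1.28 in 481-B to -0.80 in Vandana with adjusted p between 0.599 and 0.858. The averaged difference was -1.06 (adjusted p = 0.0678) and that in Vandana -1.19 (adjusted p = 0.489) once the Vandana array that went against its label was left out. The averaged difference passed the threshold with dim probes filtered out (adjusted p = 0.0452) and with slide as a block (-0.91, adjusted p = 0.0361), and over the fits that each left out an array its adjusted p ran from 0.044 to 0.196. In Vandana the difference rested on a single array, since without drought replicate 1 it was 0.06 (adjusted p = 0.996). Under the percentile shift the averaged difference was -0.83 (adjusted p = 0.0866, limma), where the median of all probes moved by -0.62. Relative to that median NAR2.1 differed by only -0.21. Relative to each genotype's own median it differed by -0.3 in IR64, 0.49 in OsNAM Event 2, -1.19 in 481-B and -0.12 in Vandana.

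NRT1.1B, a nitrate transporter and sensor of the NRT1 family, ran from 4.20 through a median of 5.38 to 6.71 on drought arrays and from 4.81 through 6.04 to 7.52 on well-watered arrays. In IR64 the drought values were 4.99, 5.81 and 4.27 and the well-watered values 4.91, 6.65 and 7.52, which overlap through well-watered replicate 1 alone. In OsNAM Event 2 the drought values were 5.41, 4.74 and 5.41 and the well-watered values 6.04 and 5.84, without overlap. The 481-B and Vandana groups overlapped. The averaged difference was -0.74 (SE 0.34, adjusted p = 0.128), and it was -1.33 in IR64 (SE 0.67, adjusted p = 0.308), -0.75 in OsNAM Event 2, -0.60 in Vandana and -0.27 in 481-B, with adjusted p of at least 0.308. With the doubtful Vandana array left out, the averaged difference was -0.81 (adjusted p = 0.108) and that in Vandana -0.88 (adjusted p = 0.567). With slide as a block NRT1.1B was called lower in IR64 (-2.13, adjusted p = 0.00858) and on average (-0.70, adjusted p = 0.0198). Under the percentile shift the averaged difference was -0.84 (adjusted p = 0.0659, limma), where the median of all probes moved by -0.62. Relative to that median NRT1.1B differed by only -0.22. Relative to each genotype's own median it differed by -0.9 in IR64, 0.18 in OsNAM Event 2, -0.3 in 481-B and -0.15 in Vandana.

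The nitrate reductase loci, whose enzymes carry out the first step of nitrate assimilation, were bright on every array. LOC_Os08g36500 read 10.93, 11.27 and 9.57 in drought-stressed IR64 and 11.15, 11.97 and 11.95 in well-watered IR64. It read 11.05, 10.77 and 11.04 in OsNAM Event 2 under drought and 11.09 and 11.26 when well watered. In 481-B it read 11.79, 11.57 and 11.31 under drought and 12.57, 11.67 and 13.01 when well watered. In Vandana it read 10.77, 12.69 and 12.66 under drought and 12.59, 11.73 and 11.80 when well watered. In Vandana, drought replicate 1 lay below all other arrays of that cultivar and the other drought arrays lay above all of them, so the means were equal. The averaged drought difference was -0.55 for LOC_Os08g36500 (SE 0.26, adjusted p = 0.133) and -0.56 for LOC_Os08g36480 (SE 0.26, adjusted p = 0.131). Within genotypes it ran from -1.10 in IR64 to 0.00 in Vandana for LOC_Os08g36500, with adjusted p of at least 0.25. Leaving out the doubtful Vandana array, the averaged differences were -0.58 (adjusted p = 0.125) and -0.60 (adjusted p = 0.127), and those in Vandana -0.15 and -0.17. With slide as a block both loci were called lower in IR64 (-1.67, adjusted p = 0.0204 and -1.68, adjusted p = 0.021). With a shift to the 75th percentile the averaged differences were -0.48 and -0.49, where the median of all probes moved by -0.62.

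The nitrate reductase probes moved as if they were a single measurement. Their Pearson r was 0.998 over 23 arrays, and after each probe's own mean was removed they never differed by more than 0.13 although each ranged over 3.57 and 3.44 log2 units. The signals of these neighbouring loci are therefore reported as uncertain between them, and they count as hardly more than a single observation.

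Nitrite reductase was dim, well above background on 7 of 12 drought and 7 of 11 well-watered arrays. IR64 read 3.53, 2.36 and 3.22 under drought and 4.24, 4.18 and 4.40 when well watered, without overlap. OsNAM Event 2 read 4.56, 2.53 and 4.09 under drought and 3.80 and 1.39 when well watered. 481-B read 4.01, 3.72 and 3.34 under drought and 5.07, 3.57 and 5.39 when well watered, and Vandana read 3.63, 3.41 and 5.16 under drought and 4.56, 4.23 and 2.63 when well watered. Its mean was thus lower under drought in IR64 (-1.24, SE 0.70, adjusted p = 0.379) and 481-B (-0.98, adjusted p = 0.951) and higher in OsNAM Event 2 (1.13, adjusted p = 0.383) and Vandana (0.26, adjusted p = 0.904), and none of these passed the test. The averaged difference was -0.21 (SE 0.36, adjusted p = 0.721). These became 0.47 in Vandana (adjusted p = 0.814) and -0.16 on average (adjusted p = 0.803) when the Vandana array that went against its label was left out.

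**Figure D2:**
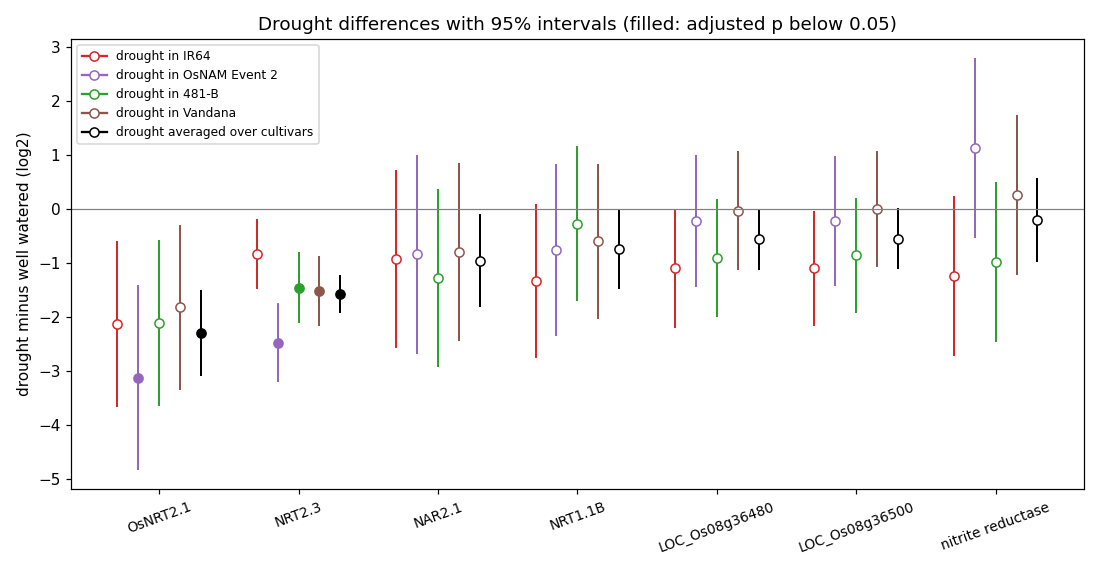
Log2 difference of drought minus well-watered (vertical axis) for each of the 7 probes in each genotype (colours) and averaged over the genotypes (black), with 95% intervals from limma and filled points where the adjusted p was below 0.05. OsNRT2.1 is filled in OsNAM Event 2 and in the average, NRT2.3 in OsNAM Event 2, 481-B, Vandana and the average, and 0 of the other 5 probes is filled.

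The arrays were hybridized on 4 slides, and 9 combinations of genotype and slide held both treatments. One of them, Vandana on slide 2, uses the well-watered array that went against its label and lay with the IR64 background. OsNRT2.1 was lower under drought in 9 of 9, by log2 differences between -4.15 and -0.40 with a median of -2.41, and the smallest difference was that of Vandana on slide 2. Without that pair it was lower in 8 of 8, between -4.15 and -0.97 with a median of -2.61. NRT2.3 also read lower in 9 of 9 and in 8 of 8, but its drought values were all dim, so the sizes are not given. Of the 52858 probes with values in all 9, 5.27% were lower in all 9, and 6.52% of probes were lower in all 8 others. NAR2.1 was lower in 6 of 9 (-3.33 to 0.53), NRT1.1B in 7 (-2.37 to 0.88), LOC_Os08g36480 in 6 (-2.50 to 0.85), LOC_Os08g36500 in 7 (-2.40 to 0.92) and nitrite reductase in 4 (-2.06 to 1.14), and without Vandana on slide 2 the same numbers were lower of 8. These within-slide values leave out slide 4, which held only IR64 well-watered replicate 1 and Vandana drought replicate 1. These arrays were the lowest of their groups for OsNRT2.1, NAR2.1, NRT1.1B and both nitrate reductases.

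With slide as a block, OsNRT2.1 (-2.81, adjusted p = 0.0109), NRT1.1B (-2.13, adjusted p = 0.00858), LOC_Os08g36480 (-1.68, adjusted p = 0.021) and LOC_Os08g36500 (-1.67, adjusted p = 0.0204) were called lower under drought in IR64, as were 2.96% of all probes. In the averaged comparison the block added NAR2.1 (-0.91, adjusted p = 0.0361) and NRT1.1B (-0.70, adjusted p = 0.0198), where 13.8% of all probes were called lower. Leaving out the 2 arrays of slide 4 gave calls in IR64 for OsNRT2.1 (-2.82, adjusted p = 0.0203) and NRT1.1B (-2.04, adjusted p = 0.0215), with 2.98% of all probes called lower. It added NRT1.1B on average (-0.71, adjusted p = 0.0387), with 11.8% of all probes called lower, and took the NRT2.3 call away in Vandana (-1.34, adjusted p = 0.113).

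**Figure D3:**
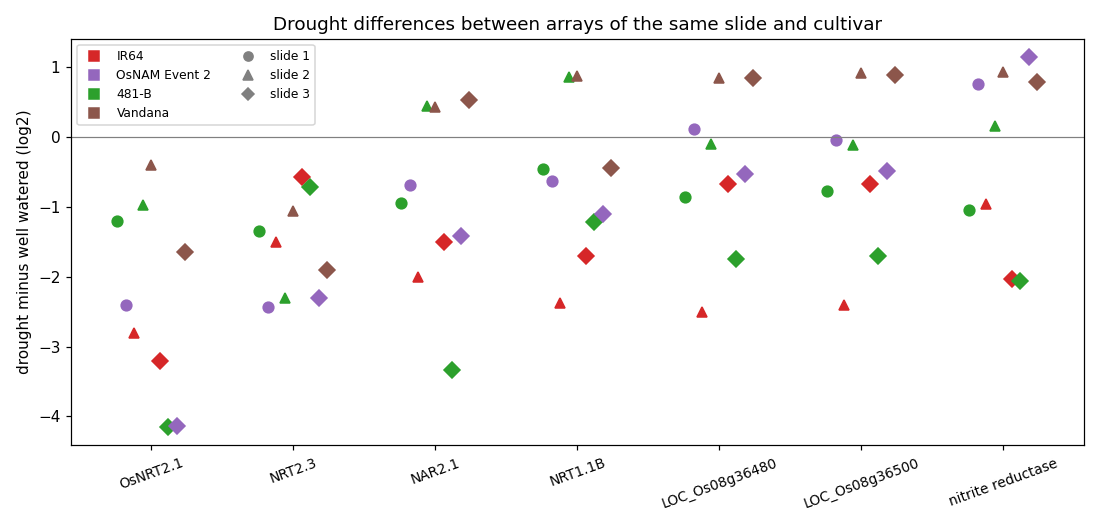
Log2 difference of drought minus well-watered (vertical axis) between arrays of the same genotype on the same slide, for each of the 7 probes, with colours for the 4 genotypes and symbols for slides 1 to 3. The Vandana points of slide 2 use the well-watered array that went against its label. All 9 points of OsNRT2.1 and of NRT2.3 lie below 0, and the other probes have points on both sides.

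OsNAM Event 2 was set against IR64 to ask what the transgene changes, and 481-B against Vandana to ask the same of the introgressed QTL. By limma, 0 of 7 members were called in any of these 6 comparisons. Few probes were called at all, with 0% under drought, 0.0113% when well watered and 0% in the drought response for OsNAM Event 2 against IR64, and 0.00567%, 0.00189% and 0.00189% for 481-B against Vandana. When well watered, NRT2.3 was higher in both OsNAM Event 2 arrays (4.29 and 4.54) than in the 3 IR64 arrays (2.60 to 3.11), a pattern that 9.03% of probes shared. The difference was 1.62 (SE 0.34, unadjusted p = 0.000168, adjusted p = 0.185), and the probe was well above background on 1 of 2 and 1 of 3 of these arrays. Nitrite reductase was lower in well-watered OsNAM Event 2 (3.80 and 1.39, neither well above background) than in IR64 (4.18 to 4.40), by at least 1.74-fold with an adjusted p of 0.816, and 7.45% of probes lay lower without overlap. In their drought responses the lines differed by -1.64 for NRT2.3 (SE 0.45, unadjusted p = 0.00207, adjusted p = 1) and by 2.37 for nitrite reductase (SE 1.04, unadjusted p = 0.0361, adjusted p = 1). Under drought the 7 differences between OsNAM Event 2 and IR64 lay between -0.03 and 0.69, with 0 at an unadjusted p under 0.05. The 95% interval for OsNRT2.1 under drought ran from -1.32 to 1.71, which leaves room for differences in either direction.

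Between 481-B and Vandana, all 7 members were lower in 481-B under drought by small amounts, from -0.49 to -0.17, and 0 of 7 had an unadjusted p under 0.05. When well watered the differences ran from -0.66 to 0.87, and in the drought response from -1.24 to 0.33, again with 0 of 7 at an unadjusted p under 0.05. Without the Vandana array that went against its label they ran from -0.95 to 1.08 and from -1.45 to 0.61, and 0 of 7 were called. For OsNRT2.1 the well-watered difference was 0.13 (95% interval -1.38 to 1.64) and -0.41 without the Vandana array that went against its label. For NAR2.1 it was 0.12 and became -0.27 without that array.

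The IR64 background (IR64 and OsNAM Event 2) had lower nitrate reductase signals than the Vandana background (Vandana and 481-B) under drought, short of the threshold. The difference was -1.03 for LOC_Os08g36500 (SE 0.35, adjusted p = 0.158) and -1.0 for LOC_Os08g36480 (SE 0.36, adjusted p = 0.192). In this comparison 0 of 7 members and 3.5% of all probes were called. An unadjusted p under 0.05 was found for 2 of 7 members and for 6431 of all 52901 probes. Within slides, LOC_Os08g36500 differed by -0.80 on slide 1, -1.81 on slide 2 and -0.98 on slide 3. With slide as a block both probes were called, at -1.31 (adjusted p = 0.012) for LOC_Os08g36500 and -1.29 (adjusted p = 0.0147) for LOC_Os08g36480. They were also called without Vandana drought replicate 1, at -1.35 (adjusted p = 0.017) and -1.32 (adjusted p = 0.0284). The share of all probes called with the block or without that array was not tallied for this comparison. When well watered, the differences were -0.80 (adjusted p = 0.505) and -0.81 (adjusted p = 0.518), with -0.87 and -0.88 without the Vandana array that went against its label, and 1.54% of all probes were called. On slide 2, which holds that array, the well-watered difference was 0.27 for LOC_Os08g36500, against -1.49 on slide 1 and -0.80 on slide 3. In the drought response 0 of 7 members differed between backgrounds by limma, with 0 at an unadjusted p under 0.05 and 0.0246% of all probes called, and 0 were called without that Vandana array.

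Across the 23 arrays OsNRT2.1 and its partner NAR2.1 varied together, with a Pearson r of 0.841, and the correlation of their deviations from group means was 0.918. The points share arrays, slides and groups, so these are descriptions. The pair was not alone in this, since OsNRT2.1 had an r within groups of 0.795 with NRT1.1B and 0.728 with LOC_Os08g36500. NAR2.1 and LOC_Os08g36500 had an r of 0.651, or 0.876 within groups, and NRT1.1B and LOC_Os08g36480 an r of 0.738, or 0.841 within groups. For OsNRT2.1 and NRT2.3, r was 0.724 over all arrays and -0.158 within groups, but NRT2.3 was well above background on only 5 of 23 arrays, and the value within groups compares mostly dim signals. Nitrite reductase, well above background on 14 of 23 arrays, had an r of 0.076 with OsNRT2.1 and of 0.519 with LOC_Os08g36500. Over the 22 arrays other than the doubtful Vandana array, the r of OsNRT2.1 with NAR2.1 was 0.843, or 0.918 within groups, and with NRT2.3 it was 0.75.

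**Figure D4:**
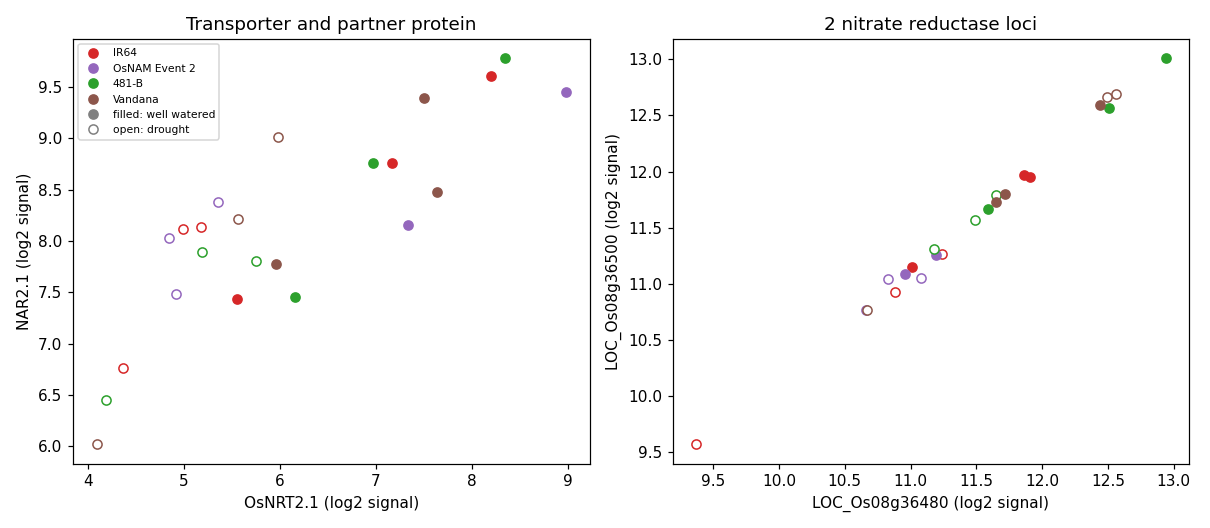
Log2 signal of NAR2.1 against OsNRT2.1 (left) and of LOC_Os08g36500 against LOC_Os08g36480 (right), with a point for each of the 23 arrays, colours for genotypes, filled points for well-watered and open points for drought arrays. The nitrate reductase points fall on a straight line (r of 0.998), and OsNRT2.1 and NAR2.1 rise together with drought arrays shifted to lower OsNRT2.1.

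The loci whose values over the 23 arrays were most like those of a member were sought among 29613 probes, each well above background throughout 1 or more of the groups. For OsNRT2.1 the closest were LOC_Os05g20100 (Pearson r 0.943), LOC_Os07g40910 (0.924) and LOC_Os11g41150 (0.922), and for NAR2.1 LOC_Os04g49970 (0.92), LOC_Os06g50240 (0.91) and LOC_Os04g32920 (0.909). For LOC_Os08g36500 they were LOC_Os05g37730 (0.871), LOC_Os01g36130 (0.851) and LOC_Os01g72120 (0.84), and for nitrite reductase LOC_Os10g02450 (0.702), LOC_Os01g68430 (0.69) and LOC_Os01g08460 (0.688). No locus was among the closest 3 of more than 1 member, and likeness to nitrite reductase was the weakest. That probe was well above background on only 14 of 23 arrays, so its r values rest in part on dim signals. No description of these loci is in the files, so they are given by identifier.

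A list of 18 further loci of nitrate transport (8), nitrate and nitrite reduction with its redox supply (3) and regulation of the nitrate and nitrogen response (7) was drawn up from general knowledge. The files do not pair its identifiers with descriptions, so its assignments were not checked. All 18 had a probe. That of LOC_Os02g04340, in the regulation group, was well above background on 0 arrays in each group. Several others, such as LOC_Os03g01290 and LOC_Os12g44100 in the transport group, were so on only part of the arrays. All of them are kept in the counts and medians below. In each single genotype 0 of 18 were called by limma. An unadjusted p under 0.05 was found for 1 of 18 in IR64, 6 in OsNAM Event 2, 3 in 481-B and 3 in Vandana. Of all probes, it was found for 9570 of 52901 in IR64 and 14002 of 52901 in OsNAM Event 2. In 481-B it was found for 4108 of 52900 probes and in Vandana for 9751 of 52901. Averaged over genotypes, 4 were called lower and 4 higher, where 12.3% of all probes were called lower and 14.2% higher. An unadjusted p under 0.05 was found there for 12 of 18, and for 19531 of all 52900 probes. The 4 that were lower comprised 3 of the 8 transport loci and 1 of the 3 reduction loci, and the 4 that were higher were all among the 7 regulation loci. The median difference was -0.46 for transport, -0.70 for reduction and 0.60 for regulation, against -0.24 for the list and -0.06 for all probes. By adjusted p, the leading loci that fell were LOC_Os02g47090 in the transport group (-1.13, SE 0.27, adjusted p = 0.00572) and LOC_Os03g57120 in the reduction group (-0.76, SE 0.19, adjusted p = 0.00598). Those that rose were LOC_Os04g41850 (0.60, SE 0.15, adjusted p = 0.00709) and LOC_Os02g22020 (1.04, SE 0.27, adjusted p = 0.00769), both in the regulation group. The other transport loci called lower were LOC_Os01g36720 (-1.48, adjusted p = 0.0345) and LOC_Os08g05910 (-0.44, adjusted p = 0.0387), and the other regulation loci called higher were LOC_Os03g03900 (0.76, adjusted p = 0.0198) and LOC_Os01g13540 (0.69, adjusted p = 0.0157). When the doubtful Vandana array was left out, 3 were called lower and 4 higher, against 12.2% and 14.3% of all probes, and LOC_Os08g05910 was no longer called (-0.41, adjusted p = 0.0645). The split by group is a description of these loci, and it was not tested.

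**Figure D5:**
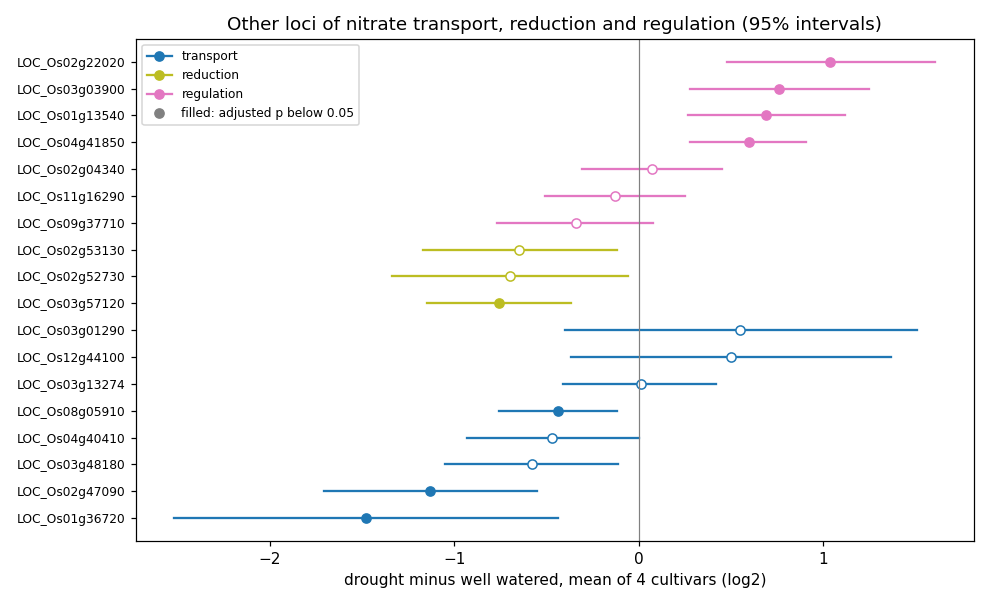
Log2 difference of drought minus well-watered averaged over the 4 genotypes (horizontal axis) with 95% intervals for the 18 further loci of the list, coloured by their place in the list and filled where the adjusted p was below 0.05. The 4 filled points right of 0 are all of the regulation group, and the 4 filled points left of 0 are 3 of transport and 1 of reduction.

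The summed level of the 6 leaf markers, which varied widely within groups, was entered as a covariate after the data had been seen. With it the averaged drought difference was -2.28 for OsNRT2.1 (adjusted p = 0.000196) and -1.58 for NRT2.3 (adjusted p = 6.16e-07), close to the values without it. The summed level of the 5 root markers lay between 10.52 and 11.73 on drought arrays and between 13.21 and 14.16 on well-watered arrays of IR64, and between 10.81 and 12.60 and between 13.19 and 13.62 in OsNAM Event 2. It lay between 10.91 and 12.46 and between 12.32 and 14.03 in 481-B, and between 9.78 and 13.02 and between 12.57 and 13.98 in Vandana. Root marker sums were thus lower under drought in IR64 and OsNAM Event 2 without overlap and overlapped in 481-B and Vandana. In Vandana the overlap came from the array that went against its label alone, and without it the well-watered sums lay between 13.17 and 13.98, above all drought sums. The sum adds linear signals and is led by RCc3, whose signal was the brightest of the 5 (median 12.45, against 8.01 for OsLsi1). It is therefore not a fall of the root markers in general. Of the 5 markers only RCc3 had a negative averaged difference, and OsLsi1 and OsLsi2 were called higher. OsNramp5 (0.57, adjusted p = 0.153) and OsIRT1 (0.24, adjusted p = 0.609) did not pass the test in limma. The part of root cell makeup in the nitrate transporter results was not tested.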

How the data were processed

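Root RNA was labelled with Cy3 and hybridized to custom Agilent arrays of 1 colour. For each array, the scanner output deposited by the authors holds the signals of all spots (62976 spots, of which 61657 were not controls), and its processed signal is a background-subtracted linear intensity without normalization between arrays. Per the labels the software was Agilent Feature Extraction 11.0, whereas the file headers give 11.5.1.1. A second deposited file holds log2 values that the authors had quantile normalized and centred per probe. Each of its 23 columns correlated best with its own array (r of at least 0.99986). The scanner files were used for the main values and the log2 table as an alternative.

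Control spots and outlier spots (0 to 17 per array, with 0 saturated) were left out, spots of a probe were averaged on the log2 scale and quantile normalization across arrays used limma 3.58.1 (R 4.3.3). A probe was taken as well above background where a share of at least 0.5 of its spots was. The number of arrays limits the precision. A single limma model (lmFit, eBayes) held a mean for each of the 8 groups over all 23 arrays, with two-sided tests, Benjamini-Hochberg adjustment over 52901 probes and a threshold of 0.05. The methods of the study name quantile normalization, more than 2-fold change and Bonferroni correction, but no test, so that threshold was run as an alternative. The script was tested on simulated data. Genotype, treatment and replicate came from the labels, also for the Vandana array whose values went against them. The replicate numbers do not pair the samples, since the correlations of same-numbered deviations ran from -0.40 to 0.42. Slides were identified from the files.

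The members, the list of 18 further loci and the markers were chosen with earlier results of these data known. All 8 members were named, with the 3 loci most like each of 4 members by Pearson r and the loci of the list called in any drought comparison. The alternatives were a 75th percentile shift, normexp background correction on the median signal (the mean signal column was not used here), the log2 table, a filter on dim probes, slide or replicate number as a block, only the arrays compared, and leaving out each array. Leaving out slide 4, a leaf marker covariate and the tallies without the doubtful Vandana array were chosen after the data were seen. Sequences were not used here, and genome coordinates were used only to place OsNRT2.1 and NRT2.2 next to each other.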

Additional observations from a re-analysis of the deposited data

How the results depend on the processing

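The counts of members called under drought depended on the settings in every genotype. With slide as a block, 4 members were called in IR64, 4 in the averaged comparison and 2 between backgrounds under drought. The 2 called between backgrounds, here and below, were the nitrate reductase probes, which count as hardly more than a single observation. Of all probes, 2.96% in IR64 and 13.8% in the average were called lower with slide as a block. Without slide 4 these shares were 2.98% and 11.8%. For the comparison between backgrounds and most other settings here the share was not tallied, so those counts only show how calls moved. Without the arrays of slide 4, a choice made after the data were seen, 2 were called in IR64, 0 in Vandana, 3 in the averaged comparison and 2 between backgrounds under drought, and NAR2.1 in Vandana turned to 0.06. The filter on dim probes, which removes NRT2.3, and the fit on only the arrays compared each gave 1 call in OsNAM Event 2, 0 in 481-B and 0 in Vandana. The 75th percentile shift gave 0 in 481-B and 0 in Vandana, and normexp gave 0 in 481-B. More than 2-fold with Bonferroni correction gave 0 in OsNAM Event 2, 0 in 481-B, 0 in Vandana and 1 in the averaged comparison. Leaving out each array in turn gave 0 to 1 calls in IR64 (1 without well-watered replicate 1), 1 to 2 in OsNAM Event 2, 0 to 1 in 481-B, 0 to 1 in Vandana, 2 to 4 in the averaged comparison (4 without IR64 well-watered replicate 1, adding NAR2.1 at -1.11 and NRT1.1B at -0.92) and 0 to 2 between backgrounds under drought (2 without Vandana drought replicate 1), and 0 in each of the other 8 comparisons. NAR2.1 in Vandana ran from -1.43 to 0.06 over these fits. The averaged differences of OsNRT2.1 (-2.52 to -2.09) and NRT2.3 (-1.64 to -1.49) stayed past the threshold whichever array was left out. With the replicate block, OsNRT2.1 averaged -2.28 (adjusted p = 0.00035) and NRT2.3 -1.59 (adjusted p = 5.24e-06), and the block changed no count of calls. The 75th percentile shift moved the median of all probes by -0.48 in IR64, -1.12 in OsNAM Event 2, -0.57 in Vandana and -0.62 in the average, and relative to the last OsNRT2.1 differed by -1.76 and NRT2.3 by -1.55. Under normexp, which compresses dim signals by its offset, they differed by -1.38 and -0.21. Except where a setting removes probes or arrays, the cause was not tested.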
